A study of Mus musculus with 8 samples.

Results

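The 42 genes described here are a module of cell cycle genes, read in single cells of 2 mouse lung tumors. They comprise 15 genes of DNA replication and the G1/S step, 26 genes of the G2 phase and mitosis, and Stmn1, which was kept apart. All 42 were found among the 27923 genes of the UMI tables, in which each unique molecular identifier (UMI) stands for 1 captured transcript. A cell barcode was called cycling when at least 2 of the genes were detected in it with at least 3 UMIs between them. By that rule 462 of the 3894 barcodes with at least 200 genes were cycling.

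The tumors came from the KP mouse model of lung adenocarcinoma, in which Cre switches on an oncogene and deletes p53 (p53 fl/fl). Cre was delivered by adenovirus under the SPC promoter, which drives it in alveolar type II cells, to chimeric mice made from KP embryonic stem cells, aged 12 weeks when tumors were initiated. Stromal and immune cells of these mice carry the alleles unrecombined, or are host cells of the chimera. Tumor 1 and Tumor 2 each came from 1 mouse, and each gave 1 library of photoactivated cells from the Healthy/Tumor Border, sorted for calcein NVOC and for viability, and 3 technical arrays loaded with cells of the Whole Tumor that were not photoactivated. No untreated lung was part of the libraries analysed here. A p-value below therefore measures the spread between arrays of 1 tumor, or between libraries of 2 mice, and tumor, mouse and sex cannot be told apart.

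The libraries held 374369 to 2019162 UMIs after filtering, and their median barcode held 675.5 to 2525.5 UMIs, with the lowest of these in Tumor 2 Whole Tumor array 2. Inside all 8 tables the cell names give the tumors the opposite numbers to the labels, which were followed here. Xist ran from 404.6 to 608.1 CPM (UMIs per 1000000 UMIs) over the 4 Tumor 1 libraries. Over those of Tumor 2 it ran from 1.363 to 2.671 CPM, so the libraries of each label belong together. The borders labelled Tumor 1 and Tumor 2 held 686 and 534 deposited barcodes. The paper gives the same cell counts for these borders, so the labels follow its numbering. Pairs of libraries shared 3 to 9 barcodes, and all shared barcodes resembled the amplification primer or a run of 1 base, as did 60 of the 3894 barcodes. Doublet calling marked 57 barcodes (1.464%), which were kept.

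A cell that divides first copies its DNA and then separates the copies. Before S phase the E2F factors raise genes such as Pcna, the sliding clamp of DNA polymerase, Mcm2 to Mcm7, the subunits of the replicative helicase, and Rrm1 and Rrm2, which make deoxyribonucleotides. In G2 and mitosis a later wave follows, with the cyclin B kinase Cdk1, the proliferation marker Mki67, topoisomerase Top2a, the centromeric histone Cenpa and Kif23, a kinesin of the midbody. In a tumor, these genes are read in malignant epithelium and in resident macrophages and lymphocytes, which can divide in tissue, whereas mature neutrophils are known as non-dividing cells.

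The later wave is known for CHR elements and CCAAT boxes near its start sites, and the earlier wave for E2F sites. Promoters of 34 of the 42 genes, from 250 bases before to 50 after the start, were found in the RefSeq tables (build GRCm38.p6, mm10). The 120 bases before the start of 5 genes that the results turn on are shown, with Top2a and Cdc20 as examples of the mitotic pattern. Capitals mark matches on either strand. An E2F site was read as TTTCCCGC, TTTGGCGC, TTTCGCGC or TTTGCCGC. The CHR was read in its usual form, TTTGAA, and in the variant form that some mitotic genes carry, TTCGAA. The CCAAT box was read by the letters of its name, and E2F matches may overlap each other.
Mki67, chr7:135716380-135716499, minus strand: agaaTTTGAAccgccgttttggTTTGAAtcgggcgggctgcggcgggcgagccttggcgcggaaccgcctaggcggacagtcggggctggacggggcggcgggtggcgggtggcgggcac
Cenpa, chr5:30666766-30666885, plus strand: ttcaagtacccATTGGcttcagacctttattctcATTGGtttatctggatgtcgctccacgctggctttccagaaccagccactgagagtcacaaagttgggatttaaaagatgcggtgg
Kif23, chr9:61946800-61946919, minus strand: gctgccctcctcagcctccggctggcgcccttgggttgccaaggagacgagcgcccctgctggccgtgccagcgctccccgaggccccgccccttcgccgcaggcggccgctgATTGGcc
Top2a, chr11:99024190-99024309, minus strand: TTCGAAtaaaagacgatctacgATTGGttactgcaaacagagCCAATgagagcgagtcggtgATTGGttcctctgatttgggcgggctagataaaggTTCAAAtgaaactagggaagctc
Cdc20, chr4:118437344-118437463, minus strand: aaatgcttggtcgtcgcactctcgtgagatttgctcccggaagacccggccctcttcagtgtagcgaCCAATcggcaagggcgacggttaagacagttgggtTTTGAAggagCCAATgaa
Mcm6, chr1:128359706-128359825, minus strand: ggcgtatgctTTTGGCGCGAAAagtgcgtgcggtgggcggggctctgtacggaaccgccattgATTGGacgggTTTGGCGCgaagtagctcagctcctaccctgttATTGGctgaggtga
Pcna, chr2:132253181-132253300, minus strand: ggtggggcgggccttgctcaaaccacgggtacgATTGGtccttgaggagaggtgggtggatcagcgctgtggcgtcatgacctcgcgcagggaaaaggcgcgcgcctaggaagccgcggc

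A CHR was found in 18 of the 22 mitotic promoters (81.8%) and in 2 of the 12 replication promoters, those of Mcm2 and Mcm7 (16.7%), against 19.4% of the 27025 promoters of the same length. A CCAAT box was found in 20 of the 22 mitotic promoters (90.9%) and 9 of the 12 replication promoters (75.0%), against 37.9% of all. An E2F site was found in 4 of the 12 replication promoters, those of Mcm3, Mcm5, Mcm6 and Mcm7 (33.3%), and in 1 of the 22 mitotic promoters, that of Cdk1 (4.55%), against 2.32% of all. Kif23 and Cenpa have their CHR at +3 and +17 of the start in that RefSeq table, and so outside the stretch shown. Annotations differ in the start, and the GENCODE gene model of Kif23 begins downstream of that CHR. These are matches of letters, not measured binding.

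The module was carried by few of its genes. In the 3894 barcodes it held 4885 UMIs, of which replication genes gave 2356 (48.23%) and mitotic genes 2499 (51.16%). Mki67 gave 625 UMIs, Pcna 539, Cenpa 530, Mcm4 397 and Kif23 268, which is 48.29% of the total, and 30 of the 42 genes had fewer than 100 UMIs, down to 15 for the cyclin Ccnb1. Between them lay Rrm1 with 216 UMIs, Top2a with 162 and the helicase genes Mcm2 (205), Mcm6 (193), Mcm3 (154), Mcm7 (153) and Mcm5 (112). Gins2, Tyms, Uhrf1, Ccne2, Ccne1, Rrm2 and Tk1 had 35 to 91 UMIs and Stmn1 had 30. The other mitotic genes, from Cdca8, Cenpe, Prc1, Bub1b, Tpx2, Cenpf, Ube2c, Cdk1 and Kif11 down to Aurka, Ccna2, Aurkb, Birc5, Ccnb2, Hmmr, Kif20a, Nusap1, Cdca3, Cdc20, Bub1, Plk1 and Ccnb1, had 15 to 85.

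The genes differed in how much of their signal lay in cycling barcodes, a share that the rule itself raises. It was 70.4% of UMIs for Mki67 and 80.65% for Birc5, a subunit of the chromosomal passenger complex, but 45.27% for Pcna, 47.39% for Kif23 and 19.35% for Aurkb, the kinase of the complex that Birc5 belongs to.

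Barcodes were put into classes by the largest share of a class's markers detected, with at least 2 detected, and the class names below stand for these gates. Genes held out of the gates varied in how far they followed the names. Among those that did were Igkc, in 80.45% of the B-like barcodes against 3.403% of all others, Lyz2 in 78.9% of the macrophage or monocyte-like against 14.8%, Wfdc2 in 63.7% of the epithelial-like against 0.272%, and Il2rb in 44.7% of the T, NK or innate lymphoid-like against 0.565%. The inflammatory gene Cxcl2 was less selective, with 88.0% of the neutrophil-like against 36.1%, as were Itgax, with 43.75% of the dendritic-like against 23.36%, and Cd24a, with 52.02% of the epithelial-like against 28.66%. Slpi did not mark the neutrophil-like class by level, at 383.3 CPM in it and 400.6 CPM in all others. The gates do not separate malignant from normal epithelium.

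Per UMI and pooled over libraries, the module stood lower in neutrophil-like cells than in the other large classes. They held 3.46 member UMIs per 10000 (95% Poisson interval 3.28 to 3.65) over 1609 barcodes. Macrophage or monocyte-like cells, 750 barcodes, held 5.31 (5.05 to 5.57), epithelial-like cells, 223 barcodes, 5.84, B-like cells, 133 barcodes, 6.80, and T, NK or innate lymphoid-like cells, 179 barcodes, 7.54. Dendritic-like cells held 8.76 over 80 barcodes, or 6.163 without their richest barcode, endothelial-like cells 3.62 over 52, which is 3.171 without the richest barcode against 3.355 in neutrophil-like cells without theirs, and fibroblast-like cells 4.48 over 45. Within libraries with at least 10 barcodes of each class, the level was above the neutrophil-like one in 7 of 8 for macrophage or monocyte-like cells, in 7 of 7 for T, NK or innate lymphoid-like and in 4 of 5 for epithelial-like cells. The exceptions were Tumor 1 Whole Tumor array 2, with 2.32 in macrophage or monocyte-like and 4.51 in neutrophil-like cells, and Tumor 2 Whole Tumor array 1, with 1.491 in epithelial-like and 2.861 in neutrophil-like cells. The intervals cover counting error only, and a sum over barcodes cannot tell fewer dividing cells from less cell cycle RNA per cell. No test is given for the module as a score, whose genes were chosen with results known.

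The share of cycling barcodes gave the classes another order, and it moved with depth. It was 7.21% in neutrophil-like barcodes (Clopper-Pearson 95% interval 5.99 to 8.58), 20% in macrophage or monocyte-like (17.2 to 23.0), 17.3% in B-like (11.3 to 24.8), 21.8% in T, NK or innate lymphoid-like (16.0 to 28.6), 24.7% in epithelial-like (19.2 to 30.9) and 26.3% in dendritic-like (17.0 to 37.3). Endothelial-like barcodes stood at 11.5% (4.35 to 23.4) and fibroblast-like at 17.8% (8.002 to 32.05), and 4 of 11 plasmacytoid dendritic-like barcodes were cycling. Cycling barcodes held a median of 4560.5 UMIs and all others 1692.5. Median depth was 2071 UMIs in neutrophil-like, 2874 in macrophage or monocyte-like, 1939 in T, NK or innate lymphoid-like and 2827 in epithelial-like barcodes.

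With every barcode thinned to 1000 UMIs, and shallower ones left out, the shares fell to 11 of 1306 neutrophil-like barcodes (0.842%) and 27 of 623 macrophage or monocyte-like (4.33%). They were 8 of 198 in epithelial-like (4.04%), 8 of 143 in T, NK or innate lymphoid-like (5.59%), 6 of 119 in B-like (5.04%) and 6 of 67 in dendritic-like barcodes (8.96%). Neutrophil-like barcodes thus stayed lowest among these classes, and the others could not be ordered at this depth. None of 34 endothelial-like and none of 33 fibroblast-like barcodes was cycling after thinning.

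**Figure D1:**
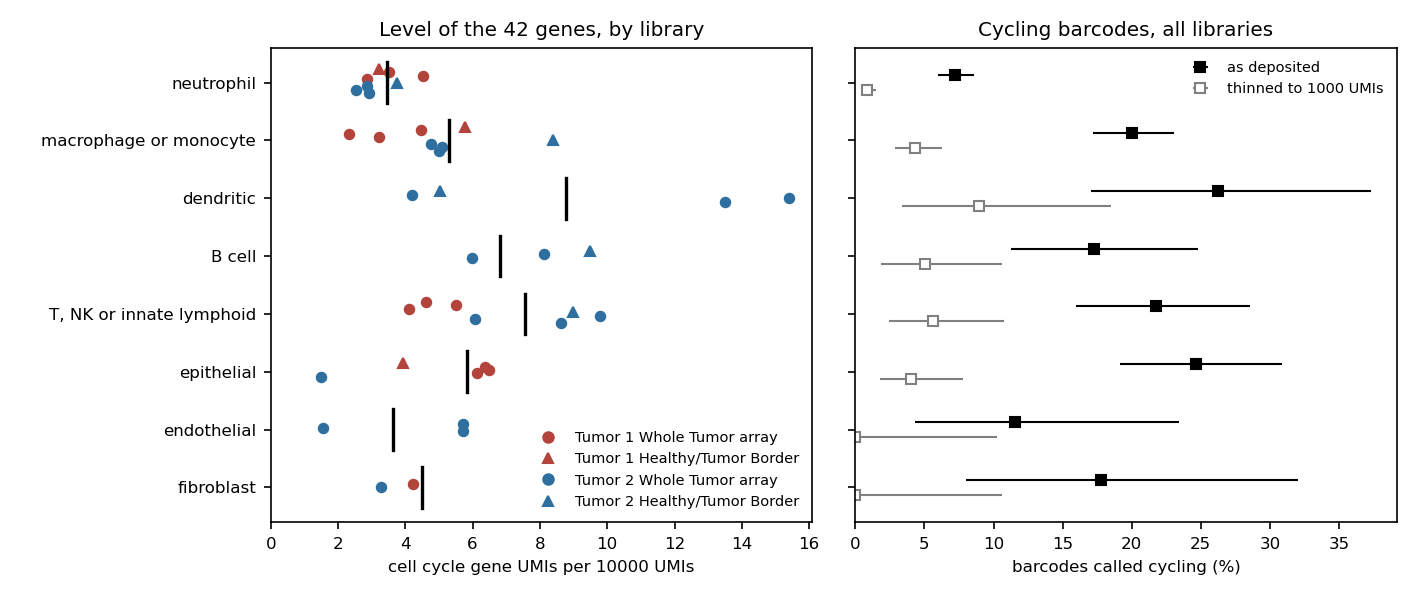
The left panel plots member UMIs per 10000 UMIs by class, with a point for each library of at least 10 barcodes (red Tumor 1, blue Tumor 2, circles Whole Tumor arrays, triangles Healthy/Tumor Border) and a black bar for all libraries pooled; the right panel plots the percent of barcodes that were cycling, with 95% intervals, as deposited (filled) and thinned to 1000 UMIs (open). Neutrophil-like libraries lie between 2.519 and 4.51 and macrophage or monocyte-like libraries between 2.32 and 8.381 per 10000, and thinning lowers every share.

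Libraries differed within the classes. In macrophage or monocyte-like cells the module level was 8.381 per 10000 in the Tumor 2 border and 2.32, the lowest, in Tumor 1 Whole Tumor array 2, with a median of 4.889 over the 8 libraries. In epithelial-like cells it ran from 1.491 to 6.488 over the 5 libraries with at least 10 such barcodes. The neutrophil-like class ran from 2.519 to 4.51 with a median of 3.072, and its cycling share from 0 of 152 barcodes in Tumor 2 Whole Tumor array 2, for which a floor of 3 barcodes allows up to 1.974% and the Clopper-Pearson interval up to 2.398%, to 12.2% in Tumor 1 Whole Tumor array 2. The former array was also the shallowest, with a median of 587.5 UMIs per neutrophil-like barcode.

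Finer gates showed spread inside the classes. Among macrophages, those with complement C1q genes were cycling in 83 of 266 barcodes (31.2%, 7.50 member UMIs per 10000). Conventional dendritic-like cells held the highest level among the finer classes with at least 20 barcodes, 15.9 per 10000 in 20 barcodes, but 1 barcode gave 87 of their 131 member UMIs, and without it the level was 6.15. T-like cells held 9.59 per 10000 over 82 barcodes, and 9.124 without their richest barcode. Keratin-rich epithelial-like cells were cycling in 46 of 171 barcodes (26.9%) and surfactant-rich ones in 8 of 51 (15.7%).

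A further 566 barcodes had no class but were rich in satellite transcripts, with a median of only 333.5 UMIs. Their module level was 14.2 per 10000, of which mitotic genes gave 10.0, while only 22 (3.89%) met the cycling rule. Their 359 member UMIs lay in 233 barcodes, and without the 10 richest the level was 12.58. Their Mki67 stood at 170.5 CPM, Top2a at 111.0 CPM and Aurkb at 47.57 CPM.

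Most cycling barcodes held genes of both waves. Of the 462, 331 (71.65%) had replication and mitotic genes, 90 replication genes alone and 41 mitotic genes alone. Barcodes with both made up 62.93% of the neutrophil-like, 69.09% of the epithelial-like, 74.0% of the macrophage or monocyte-like, 79.49% of the T, NK or innate lymphoid-like and 90.48% of the dendritic-like cycling barcodes. At the threshold itself lay 218 of the 462 (47.19%), with 152 at exactly 3 UMIs and 159 at exactly 2 genes, of which 93 were both, and a further 274 barcodes had 2 genes with 2 UMIs and so lay just outside.

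Barcodes with many of the genes were few. At least 5 genes were found in 83 barcodes, of which 36 were macrophage or monocyte-like, 22 epithelial-like, 8 neutrophil-like and 5 dendritic-like. Of those macrophages 18 came from the Tumor 2 border, and 20 of those epithelial-like barcodes from the Tumor 1 Whole Tumor arrays. At least 10 genes were found in 15 barcodes, led by a C1q macrophage of the Tumor 2 border with 28 genes and 110 member UMIs among 10837 UMIs.

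Next came a conventional dendritic-like barcode of Tumor 2 Whole Tumor array 3, with 25 genes and 87 member UMIs, and another C1q macrophage of the Tumor 2 border with 24 and 76. Both neutrophil-like barcodes of this set came from Tumor 1 Whole Tumor array 2, with 21 genes in 32 member UMIs and 16 genes in 41. Of the 15 barcodes, 2 resembled the primer, and these held nearly as many genes as UMIs, 5526 of 5691 and 5576 of 5656.

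**Figure D2:**
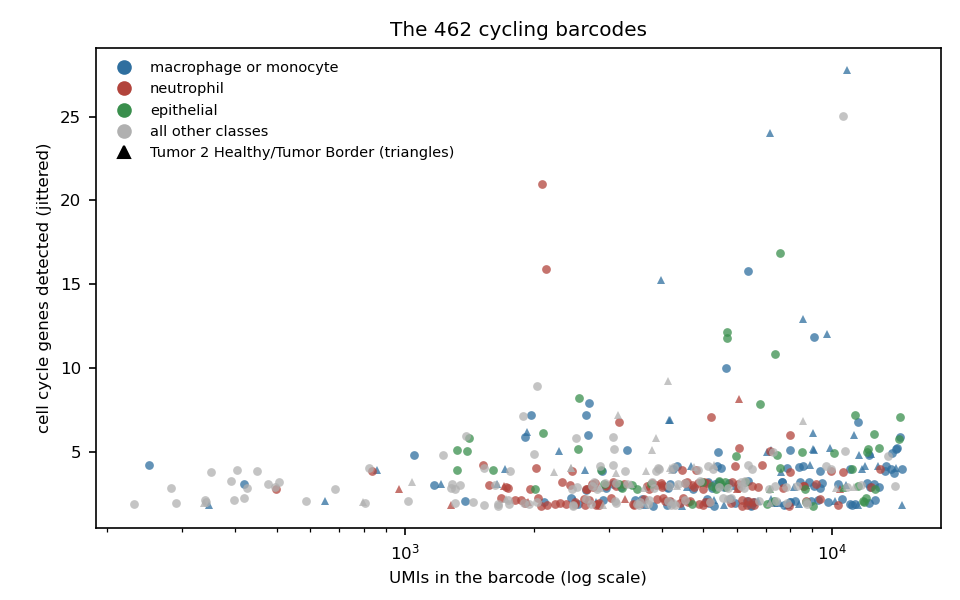
Each point is 1 of the 462 cycling barcodes, with its UMIs on a log axis and the number of the 42 genes detected, jittered, coloured by class, with triangles for the Tumor 2 border. Most points have 2 to 4 genes, and the top ones, with 28, 25 and 24, come from Tumor 2.

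Beside these counts stand values of quality. Doublets made up 5 of 116 cycling neutrophil-like barcodes (4.31%) and 11 of the 1493 others (0.7368%). The shares were 1.333% and 1.667% in macrophage or monocyte-like and 1.818% and 2.976% in epithelial-like barcodes. Of the 60 barcodes that resembled the primer 16 were cycling, and they made up 7 of the 36 macrophage or monocyte-like barcodes with at least 5 of the genes. The median share of mitochondrial UMIs was 2.689% in cycling and 7.984% in other epithelial-like barcodes, and 6.8% and 6.884% in macrophage or monocyte-like ones. Of 9 genes of neutrophil precursors, Ltf was the most abundant in neutrophil-like cells, with 1052 UMIs in 247 barcodes, 20 of them cycling. Camp had 81 UMIs in 8 barcodes and Ngp 239 in 26, none of them cycling, while 9 of 36 barcodes with Cebpe, 10 of 31 with Prtn3 and 3 of 8 with Mpo were cycling. Beside these stand 116 cycling and 1493 other neutrophil-like barcodes, and the former were deeper, with a median of 3928.5 against 1979.0 UMIs. Of the 8 neutrophil-like barcodes with at least 5 of the module's genes, 1 held Cebpe, 2 held Prtn3 and none held Mpo. Elane, Ctsg and Fcnb had 1 UMI each. The part of these in the result was not tested.

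Gene by gene, macrophage or monocyte-like cells were set against neutrophil-like cells within each of the 8 libraries, on sums of UMIs, with edgeR's quasi-likelihood test adjusted over all genes tested. Of the 42 genes, 27 had enough UMIs to be tested, and of these 2 were called higher and 1 lower, with 28.1% of all genes called, 15.5% higher and 12.6% lower. The 15 others were too low. The median change of the genes tested was 0.55 on the log2 scale against 0.157 over all genes.

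Cenpa, the histone that marks centromeres, was higher in macrophage or monocyte-like cells. In Tumor 1 its level in them was 0 CPM at the border and 61.7, 46.8 and 14.5 CPM in the Whole Tumor arrays, and in Tumor 2 it was 99.6 CPM at the border and 124.1, 160.7 and 112.6 CPM in the arrays. In neutrophil-like cells the same libraries gave 12.7, 19.2, 5.69 and 7.55 CPM in Tumor 1 and 45.9, 13.4, 58.1 and 26.8 CPM in Tumor 2. The border of Tumor 1, with 22 macrophage or monocyte-like barcodes, was the exception among 8 libraries. The difference was 1.59 on the log2 scale (SE 0.366, adjusted p = 0.00111).

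Mcm6, a helicase subunit, averaged 17.4 ± 11.4 CPM (SD, n = 8) in macrophage or monocyte-like and 4.26 ± 4.58 CPM in neutrophil-like cells, and was higher in 8 of 8 libraries. Its change was 1.78 (SE 0.587, adjusted p = 0.0215), and it was no longer called with at least 3 markers asked of a class, or without Tumor 1 Whole Tumor array 1, the Tumor 2 border or Tumor 2 Whole Tumor array 3. Mcm6 had 59 UMIs against 16. It thus reached the minimum of 20 UMIs for a test through the class where it is higher, and its call is a description. Mki67 averaged 63.6 ± 59.6 against 29.7 ± 23.6 CPM with an adjusted p of 0.0665, and Pcna 58.5 ± 43.6 against 62.8 ± 19.98 CPM with 0.172, so neither was called.

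Kif23 ran the other way. In neutrophil-like cells it stood at 19.5 CPM in the Tumor 1 border, at 24.6, 23.9 and 30.2 CPM in the Tumor 1 arrays, at 27.5 CPM in the Tumor 2 border and at 98.4, 116.3 and 112.6 CPM in the Tumor 2 arrays. In macrophage or monocyte-like cells these libraries gave 0, 7.26, 2.04, 0, 27.0, 28.0, 6.70 and 11.7 CPM. The level was lower in macrophage or monocyte-like cells in 8 of 8 libraries, by little in the Tumor 2 border, and the change was -2.59 (SE 0.465, adjusted p = 6.52e-05).

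This signal was spread thinly over neutrophil-like cells, with 165 UMIs in 118 of 1609 barcodes, at most 4 in any barcode and 18 in the 5 richest. By contrast the 173 Mki67 UMIs of macrophage or monocyte-like cells in the Tumor 2 border lay in 28 of 182 barcodes, with up to 38 in 1 barcode and 115 in the 5 richest. Kif23 overlaps no other gene in the GENCODE annotation (chr9:61915905-61946774, minus strand).

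**Figure D3:**
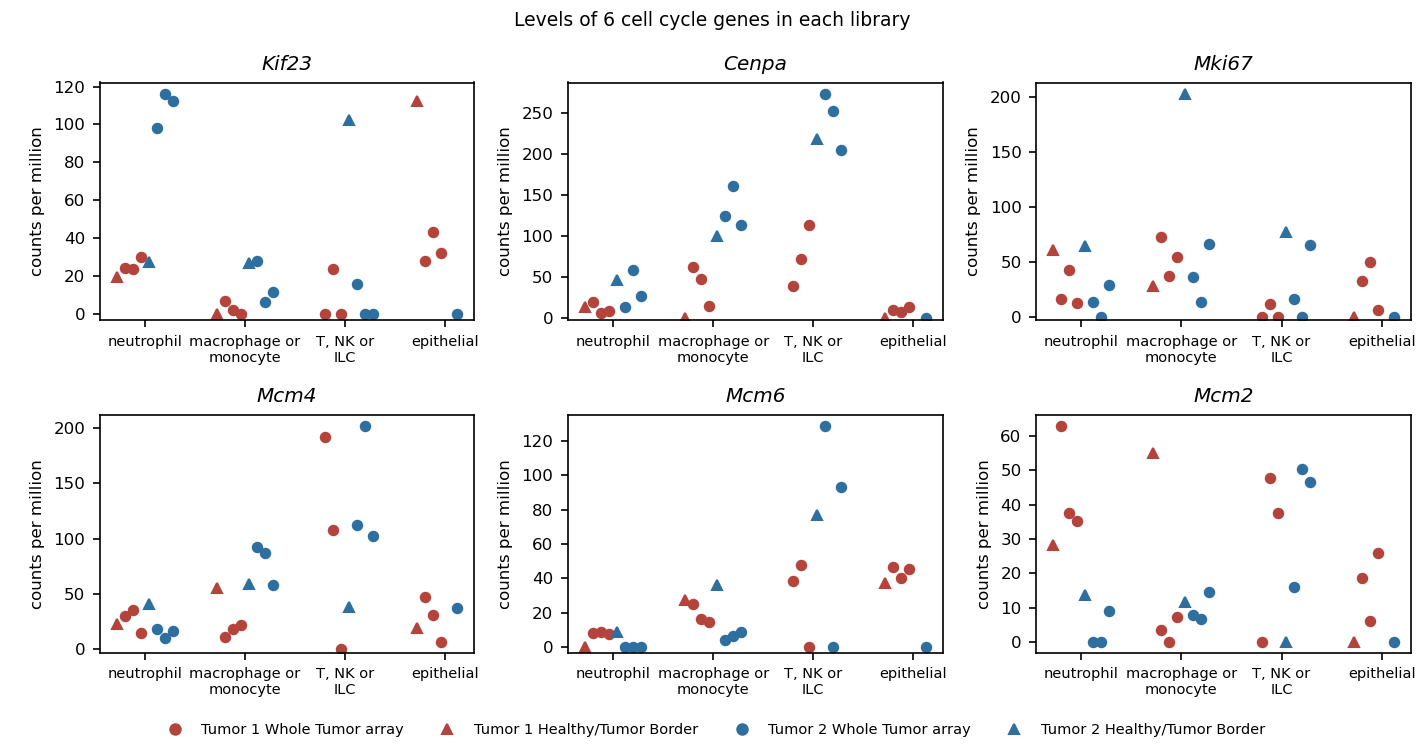
The panels plot the CPM of Kif23, Cenpa, Mki67, Mcm4, Mcm6 and Mcm2 in each library for the neutrophil-like, macrophage or monocyte-like, T, NK or innate lymphoid-like and epithelial-like classes. Kif23 in neutrophil-like cells reaches 98.4 to 116.3 CPM in the 3 Tumor 2 Whole Tumor arrays and at most 30.2 CPM elsewhere, and Cenpa is at most 58.1 CPM in neutrophil-like cells and reaches 273.0 CPM in T, NK or innate lymphoid-like cells.

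T, NK or innate lymphoid-like cells were compared with neutrophil-like cells in the 7 libraries with at least 10 such barcodes. Of 14 genes tested, 3 were higher and 1 lower, with 32.0% of all genes called, 8.56% higher and 23.5% lower. Cenpa stood at 38.4, 71.6 and 112.3 CPM in the Tumor 1 arrays, 218.0 CPM in the Tumor 2 border and 273.0, 252.4 and 204.4 CPM in the Tumor 2 arrays. It was above the neutrophil-like level in 7 of 7 libraries, with a change of 2.03 (SE 0.450, adjusted p = 4.85e-05). By finer gate and pooled over libraries, Cenpa stood at 310.4 CPM in T-like cells, from 56 UMIs. It was 117.6 CPM in NK-like cells, from 7 UMIs, and 47.15 CPM in innate lymphoid-like cells, from 8, so most of the signal lay in T-like cells.

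Mcm6 averaged 54.9 ± 47.8 against 4.86 ± 4.58 CPM and was higher in 5 of 7 libraries, with a change of 2.75 (SE 0.714, adjusted p = 0.000685). Rrm1, the large subunit of ribonucleotide reductase, averaged 48.0 ± 47.1 against 10.1 ± 7.74 CPM and was higher in 4 of 7 (1.76, SE 0.651, adjusted p = 0.0242). Its call was lost with DESeq2 and without the Tumor 2 border or Tumor 2 Whole Tumor array 3. Kif23 was lower, 20.4 ± 37.5 against 61.9 ± 44.5 CPM, in 6 of 7 libraries (-2.14, SE 0.593, adjusted p = 0.00159), but scaled by total UMIs alone its change was -1.34 with an adjusted p of 0.129. Mcm6 had 29 UMIs against 16, and Kif23 had 11 against 145. Both reached the minimum of 20 UMIs for a test through the class where they are higher, and their calls are descriptions.

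Epithelial-like cells, which take in the tumor's own cells, could be compared in 5 libraries, 4 of them of Tumor 1. Of 18 genes tested, 5 were higher and 1 lower than in neutrophil-like cells, with 45.2% of all genes called, 21.5% higher and 23.7% lower. Mcm6 stood at 37.5 CPM in the Tumor 1 border and 46.9, 40.2 and 45.6 CPM in the Tumor 1 arrays, and was listed at 0 in Tumor 2 array 1, where 10 epithelial-like barcodes were found. In neutrophil-like cells of the same libraries it was 0, 8.21, 9.11, 7.55 and 0 CPM. The Tumor 1 libraries did not overlap with them, and the change was 2.78 (SE 0.669, adjusted p = 0.00015), a call kept in all 15 alternatives. Mcm6 had 32 UMIs in epithelial-like and 14 in neutrophil-like cells. It thus reached the minimum of 20 UMIs for a test through the class where it is higher, and its call is a description.

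Of the other genes higher in epithelial-like cells, Stmn1, which binds free tubulin, had 18 UMIs against 2 (3.99, SE 1.00, adjusted p = 0.000298). The spindle genes Prc1 and Tpx2 changed by 2.75 (adjusted p = 0.00593) and 2.501 (adjusted p = 0.00795), each from 15 UMIs against 8. These 3 genes are near the minimum of 20 UMIs for a test and reached it mainly through the epithelial-like cells, where they are higher. Their calls, counted among the higher ones above, are therefore descriptions. None of the 3 was tested with filterByExpr or without Tumor 1 Whole Tumor array 1 or array 2. Without array 3 of that tumor, Stmn1 and Tpx2 were likewise too low, and Prc1 was so without the Tumor 1 border. Prc1 and Tpx2 were also too low with at least 500 genes asked of a barcode or 3 markers of a class. The members called numbered 1, 2 and 3 without Tumor 1 Whole Tumor arrays 1, 2 and 3. The calls of Mcm7, higher, and Mcm2, lower, were lost under several alternatives. Mcm2 had 10 UMIs against 99 and so reached the minimum through the neutrophil-like cells. Mki67, with 17.8 ± 22.3 against 29.0 ± 21.4 CPM, Pcna, Mcm4 and Kif23 did not pass the test.

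Against macrophage or monocyte-like cells in the same 5 libraries, a comparison added after seeing the data, 1 of 15 genes was higher in epithelial-like cells and 1 lower, with 30.2% of all genes called, 15.1% higher and 15.0% lower. Kif23 averaged 43.3 ± 41.9 CPM in epithelial-like and 7.46 ± 11.9 CPM in macrophage or monocyte-like cells and was higher in 4 of 5 libraries (2.56, SE 0.6996, adjusted p = 0.00167), though not called without Tumor 1 Whole Tumor array 2. Cenpa averaged 5.71 ± 5.75 against 49.4 ± 48.5 CPM (-2.34, SE 0.694, adjusted p = 0.00411), and its call was lost without Tumor 1 Whole Tumor array 1 or array 2. Kif23 had 31 UMIs against 10, and Cenpa had 6 against 75. Each reached the minimum of 20 UMIs for a test through the class where it is higher, and both calls are descriptions.

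The tumors were next compared over their Whole Tumor arrays, within a class. In macrophage or monocyte-like cells 2 of 18 genes tested were higher in Tumor 2 and none lower, with 13.7% of all genes called, 7.91% higher and 5.79% lower. Mcm4 stood at 92.1, 87.1 and 58.5 CPM in the Tumor 2 arrays and at 10.9, 18.3 and 21.7 CPM in the Tumor 1 arrays, without overlap (2.19, SE 0.4002, adjusted p = 0.000227). Cenpa averaged 132.5 ± 25.2 against 41.0 ± 24.1 CPM (SD, n = 3 and 3), also without overlap (1.69, SE 0.339, adjusted p = 0.000672). Both calls were kept in all 18 alternatives. The module as a whole stood at 4.956 ± 0.171 against 3.335 ± 1.076 UMIs per 10000, a value given without a test.

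In neutrophil-like cells, compared after seeing the data, 2 of 13 genes were higher in Tumor 2 and 2 lower, with 33.7% of all genes called, 17.6% higher and 16.1% lower. Kif23 averaged 109.1 ± 9.47 CPM in the Tumor 2 arrays and 26.2 ± 3.44 CPM in the Tumor 1 arrays, without overlap (2.91, SE 0.349, adjusted p = 1.95e-14). Its UMIs lay in 13.04%, 7.237% and 18.1% of the neutrophil-like barcodes of the Tumor 2 arrays and in 3.893% to 6.04% of those of the Tumor 1 libraries. Cenpa averaged 32.8 ± 23.0 against 10.8 ± 7.29 CPM with overlapping arrays (2.37, SE 0.589, adjusted p = 0.000457).

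Of the 5 helicase subunits tested, Mcm2 and Mcm3 were lower in Tumor 2, and Mcm4, Mcm5 and Mcm7 were not called. Mcm2 stood at 62.9, 37.6 and 35.2 CPM in the Tumor 1 arrays and at 0, 0 and 8.94 CPM in the Tumor 2 arrays (-2.09, SE 0.654, adjusted p = 0.0069), a call lost without Tumor 2 Whole Tumor array 1. Mcm3 had 27 UMIs among 1640999 in Tumor 1 and none among 886128 in Tumor 2, so that, taking 3 UMIs over the group as the floor, it was at least 4.86-fold lower per total UMIs and at least 2.61-fold lower with the TMM factors of the test (adjusted p = 0.0151). That call was lost with DESeq2 and without Tumor 2 Whole Tumor array 3. Mcm2 had 70 UMIs in the Tumor 1 arrays and 5 in those of Tumor 2. Mcm2 and Mcm3 reached the minimum of 20 UMIs for a test through Tumor 1, where they are higher, and their calls are descriptions. Both bounds pool the Tumor 1 arrays, which varied widely, at 13.3 ± 9.66 CPM, and no bound without one of them is given.

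For this comparison the scaling matters. The TMM factors shifted the tumors against each other by 0.794 on the log2 scale relative to total UMIs, and over all genes the median change was -0.29. Scaled by total UMIs alone, 8 genes were called, Kif23 (2.06) and Cenpa (1.52) higher and Mcm2 (-2.95), Mcm3, Mcm5 (-2.16), Rrm1 (-2.34), Cdca8 (-3.08) and Pcna (-0.81) lower. Pcna itself, at 76.6, 87.7 and 62.9 CPM in Tumor 1 and 53.7, 29.1 and 42.9 CPM in Tumor 2, did not overlap in CPM but changed by 0.06 (adjusted p = 0.915) with TMM.

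Summed by wave and per total UMIs, replication genes stood at 2.435, 2.961 and 1.787 UMIs per 10000 in neutrophil-like cells of Tumor 1 arrays 1, 2 and 3 and at 1.118, 0.678 and 1.019 in those of Tumor 2. Mitotic genes stood at 1.04, 1.549 and 1.082 in Tumor 1 and at 1.744, 1.841 and 1.895 in Tumor 2. Neither sum overlapped between the tumors, and they lay in opposite directions, but Kif23 alone gave 56.41%, 63.16% and 59.43% of the mitotic UMIs in the Tumor 2 arrays. Without it, the mitotic sum was 0.7934, 1.31 and 0.78 in Tumor 1 and 0.7601, 0.6782 and 0.7689 in Tumor 2, so the higher mitotic sum of Tumor 2 rested on that gene. These sums are descriptions without a test.

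**Figure D4:**
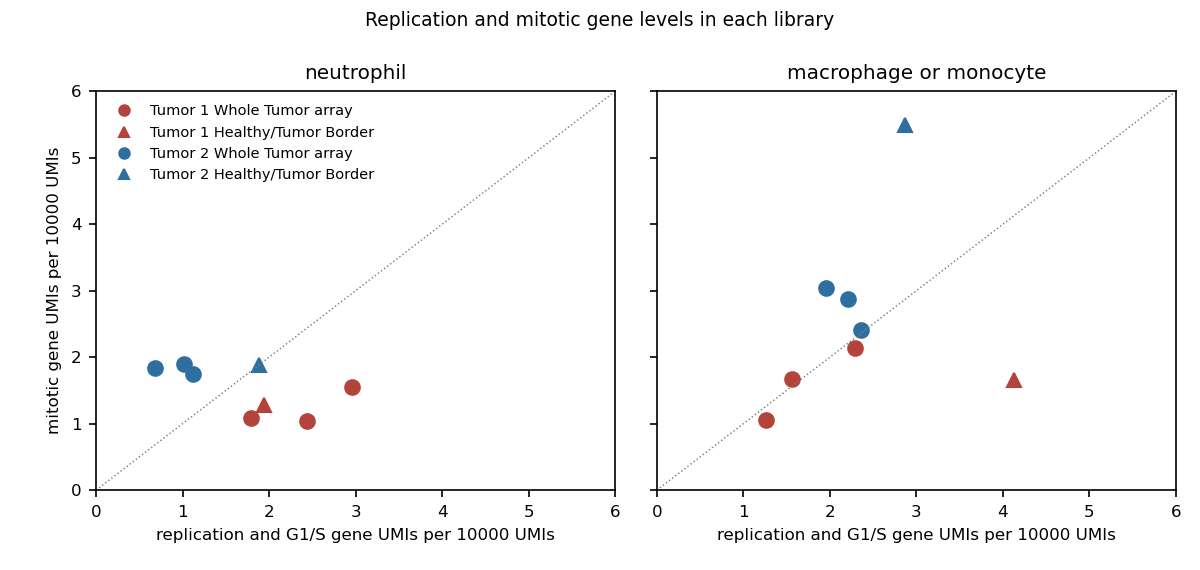
Mitotic member UMIs per 10000 are plotted against replication member UMIs per 10000 for each library, in neutrophil-like (left) and macrophage or monocyte-like cells (right), with a dotted line where they are equal. In neutrophil-like cells the Tumor 2 Whole Tumor arrays lie above the line, which rests on Kif23, and the Tumor 1 arrays below it, and the Tumor 2 border stands highest in macrophage or monocyte-like cells, at 5.497 mitotic and 2.872 replication UMIs.

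The border libraries were compared with the arrays of the same tumor, and since each border is 1 library, the spread behind the test comes from the arrays. In macrophage or monocyte-like cells of Tumor 2, 1 of 18 genes was called, a higher one, with 1.72% of all genes called, 0.988% higher and 0.727% lower. Mki67 stood at 202.8 CPM in the border and at 36.0, 13.4 and 65.8 CPM in the arrays, above all of them (2.01, SE 0.385, adjusted p = 0.00325). The call was lost with DESeq2, and without the barcodes holding at least 10 of the genes the change was 1.32 (adjusted p = 0.137).

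C1q macrophages made up 131 of 182 macrophage or monocyte-like barcodes in that border, and 27 of 61, 32 of 75 and 46 of 141 in the arrays. Within C1q macrophages alone, Mki67 stood at 233.9 CPM in the border and at 55.0, 17.7 and 26.5 CPM in the arrays (2.57, adjusted p = 0.0478). Over the whole class, Mcm6, at 36.3 against 6.49 ± 2.39 CPM (adjusted p = 0.0863), and Top2a, at 36.3 against 8.65 ± 10.3 CPM (adjusted p = 0.155), did not pass the test. Cenpa, at 99.6 against 132.5 ± 25.2 CPM (adjusted p = 0.79), lay the other way and did not pass it either. The border of Tumor 1, with 22 macrophage or monocyte-like barcodes, was not compared with its arrays in this class.

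In neutrophil-like cells of Tumor 1, in a comparison added after seeing the data, Mki67 was the only 1 of 13 genes called, with 6.02% of all genes called and 1.02% called lower. It stood at 60.5 CPM in the border and at 16.4, 42.1 and 12.6 CPM in the arrays (1.71, SE 0.444, adjusted p = 0.00436). Of its 62 UMIs in the border, 42 lay in the 5 richest of 411 barcodes. The call was lost with DESeq2, without Tumor 1 Whole Tumor array 3, and when scaled by total UMIs alone (1.15, adjusted p = 0.0782).

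In neutrophil-like cells of Tumor 2, likewise added, Kif23 was the only 1 of 13 genes called, with 5.50% of all genes called, 1.90% higher and 3.60% lower. It stood at 27.5 CPM in the border, from 6 UMIs, against 109.1 ± 9.47 CPM in the arrays (-2.45, SE 0.612, adjusted p = 0.00377), and was called in all 16 alternatives. The border of Tumor 2 thus lay near the 19.5 to 30.2 CPM of the Tumor 1 libraries. The border effects of the tumors differed for Kif23 by -2.60 (SE 0.817, adjusted p = 0.0268, with 7.41% of all genes called), but not past the threshold with total UMIs alone (-1.57, adjusted p = 0.164) or DESeq2 (-2.43, adjusted p = 0.0907).

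Cycling macrophage or monocyte-like barcodes were then set against the other barcodes of that class in 7 libraries, to see which genes outside the module went with the call. The 42 genes define the groups, so their differences, such as 2.53 for Mki67 and 1.72 for Cenpa, are descriptions. Of 59 further cell cycle genes tested, none was called by edgeR or by DESeq2, with 3 at an unadjusted p under 0.05, and 30 of 8734 genes (0.343%) were called in all, 0.0572% higher and 0.286% lower. Of the 5 higher genes, Mki67, Cenpa, Rrm1 and Mcm4 are members, and the only other was Adamdec1, named after its values were seen. Cycling barcodes were deeper, with a median of 6649 against 2389.5 UMIs.

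Other cell cycle genes were read from 5 lists of 25 replication genes, 35 mitosis genes, 14 chromatin and tubulin genes, 16 G1 cyclins, kinases and factors, and 16 inhibitors and brakes of the cycle. Between macrophage or monocyte-like and neutrophil-like cells, most calls fell in the last 2 lists. Against neutrophil-like cells, macrophage or monocyte-like cells had 0 of 20 replication genes called (edgeR, 1 at an unadjusted p under 0.05) and 3 of 19 mitosis genes lower, Cks2 (-2.99), Ccnf (-1.96) and Pttg1 (-1.92). Chromatin and tubulin genes were split, with 2 of 14 higher and 2 lower, among them Lmnb1, a lamin of the nuclear envelope, at 150.6 ± 62.1 against 1020 ± 786.7 CPM (-2.65, adjusted p = 1.25e-05).

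Of the 13 G1 genes tested there, Myc (2.60), E2f1 (2.41) and Ccnd1 (2.01), which drive entry into the cycle, were higher and Ccnd3 (-0.94) lower. Of 15 brakes, 2 were higher, the INK4 inhibitors Cdkn2b (3.57) and Cdkn2a (3.03), and 8 were lower, with 15.5% of all genes called higher and 12.6% lower. The latter include the stress genes Gadd45b, at 610.4 ± 405.1 against 2187 ± 1037 CPM (-2.40, adjusted p = 7.53e-07), and Gadd45a (-2.20), and the inhibitors Cdkn2d (-1.73) and Cdkn1a (-0.96, adjusted p = 0.0087). Neutrophil-like cells thus held the higher level of most brakes called. Cdkn2b, Cdkn2a, E2f1, Ccnd1 and Myc had 41, 18, 27, 78 and 230 UMIs in macrophage or monocyte-like cells. In neutrophil-like cells they had 4, 4, 4, 9 and 18. They reached the minimum of 20 UMIs for a test mainly through the class where they are higher, and their calls are descriptions.

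T, NK or innate lymphoid-like cells had 2 brakes of 12 above the neutrophil-like level, Rbl2 (1.55) and Trp53 (1.17), and 6 below, with 8.56% of all genes called higher and 23.5% lower. Gadd45a stood at 14.3 ± 21.3 against 738.0 ± 359.4 CPM (-6.16, SE 0.487, adjusted p = 1.75e-34), and Cdkn1a at 376.1 ± 204.0 against 1915 ± 638.7 CPM (-3.24). Of 7 G1 genes, Myc (2.96) and Ccnd2, a D cyclin of lymphocytes, at 912.7 ± 700.3 against 75.7 ± 45.4 CPM (2.66), were higher. Of 13 replication genes Ssrp1 was higher and Chaf1b lower, and of 9 mitosis genes Ckap2l and Ccnf were lower, the latter with 0 UMIs against 247.

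Epithelial-like cells had 4 of 8 G1 genes above the neutrophil-like level and none below. Ccnd1, cyclin D1, stood at 482.7 ± 191.4 against 3.88 ± 5.44 CPM (7.17, SE 0.555, adjusted p = 2.53e-35), and Myc (4.67), Cdk4 (1.70) and Cdk6 (1.34), the kinases of D cyclins, followed. Of 15 brakes, 3 were higher and 10 lower, in a comparison where 21.5% of all genes were called higher and 23.7% lower. Cdkn2a, which encodes p16INK4a and p19ARF, stood at 331.0 ± 147.6 against 1.12 ± 1.135 CPM (7.60, SE 0.570, adjusted p = 1.42e-37), higher in 5 of 5 libraries, with Cdkn2b (5.12) and Cdkn1c (2.79).

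Among the brakes lower in epithelial-like cells, Rb1 stood at 12.9 ± 13.1 against 66.1 ± 34.7 CPM (-2.40, adjusted p = 4.02e-05). Trp53, the gene that the model deletes, stood at 10.0 ± 11.9 against 41.2 ± 20.1 CPM (-1.66, adjusted p = 0.0104), from 12 and 117 UMIs. These are tags near the transcript's end, which need not lie in the deleted part, so they do not check the deletion. Against macrophage or monocyte-like cells, Ccnd1 (5.14), Cdkn2a (4.61), Myc (2.35) and Cdk4 (1.52) were again higher and Rb1 (-2.07), Trp53 (-1.64) and Cdkn1a (-1.62) lower.

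Replication and mitosis genes were called less often than the 45.2% of all genes called in that comparison, a difference that was not tested. Of 17 replication genes, Dut (2.82), Hells (2.31) and Ssrp1 (1.07) were higher than in neutrophil-like cells and Slbp (-1.30) lower, and of 15 mitosis genes Cks1b (3.43), Anln (2.80) and Knstrn (2.62) were higher and Ccnf (-2.70) lower.

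Between the tumors, neutrophil-like cells had none of 14 replication genes higher in Tumor 2 and 4 lower (6 lower with total UMIs alone), among them Rfc5 (-3.33), the flap nuclease Fen1 (-2.51) and Ssrp1 (-1.70). Of 11 mitosis genes, Cks2 (3.31) and Pttg1 (1.92), the securin that inhibits separase, were higher and Ccnf (-1.82) lower, calls that total UMIs alone kept while adding Ncapd2 and Smc2 as lower. Of 14 chromatin and tubulin genes, 3 were higher, Lmnb1, Hmgb2 (1.62) and Tuba1c (1.25), and 3 lower, Tuba1b (-2.91), Tubb5 (-2.05) and Ranbp1 (-1.91), but with total UMIs alone 1 was higher, Lmnb1, and 6 lower. Lmnb1 stood at 1859 ± 263.7 CPM in Tumor 2 and 329.3 ± 28.7 CPM in Tumor 1 (3.33, adjusted p = 3.43e-35). Of 6 G1 genes, the call of Ccnd3 was lost with total UMIs alone, and Ccnd2, Cdk2 and Cdk4 were then called, all lower.

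Of 12 brakes 7 were higher there and 2 lower, with 17.6% of all genes called higher and 16.1% lower, and scaled by total UMIs alone 6 were higher and 3 lower. Gadd45a stood at 994.8 ± 153.0 against 367.8 ± 39.9 CPM (2.25), Gadd45b at 3273 ± 770.8 against 1317 ± 308.2 CPM (2.11) and Cdkn1a at 2482 ± 128.3 against 1244 ± 28.5 CPM (1.81), while Rb1 (-1.54) and Trp53 (-1.31) were lower. Scaled by total UMIs alone, these 5 kept their calls, at 1.438, 1.31, 0.9981, -2.416 and -2.177, while that of Ccng2 was lost (0.4405, adjusted p = 0.105) and Ccng1 became a lower one (-1.334, adjusted p = 5.74e-05).

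In macrophage or monocyte-like cells, 3 of 10 G1 genes were higher in Tumor 2, E2f2 (3.22), Ccnd2 (1.78) and Myc (1.48). Of 14 brakes, Gadd45b (2.42), Cdkn2d (2.19) and Cdkn1b (1.17) were higher and Cdkn2b (-2.39), Trp53inp1 (-1.46) and Gadd45a (-1.18) lower, with 7.91% of all genes called higher and 5.79% lower. None of 12 mitosis genes and none of 14 chromatin and tubulin genes was called by edgeR, with 1 of each at an unadjusted p under 0.05.

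At the borders few of these genes were called. In macrophage or monocyte-like cells of Tumor 2, Myc was higher, at 162.9 against 49.4 ± 25.8 CPM (1.42, adjusted p = 0.0456), and the CDK inhibitor Cdkn1b lower, at 93.8 against 220.1 ± 29.0 CPM (-1.27, adjusted p = 0.0411). In neutrophil-like cells of Tumor 1, 4 of 12 brakes were higher, Gadd45a (1.90), Gadd45b (1.24), Ccng2 (1.15) and Cdkn1a (0.94), with 410 of all 8204 genes called higher, and of the other lists Hmgb2 (1.30) and Pttg1 (1.41) were. Scaled by total UMIs alone, Gadd45a (1.339, adjusted p = 1.12e-05) and Gadd45b (0.6889, adjusted p = 0.034) kept their calls, and those of Ccng2 (0.5877), Cdkn1a (0.387), Hmgb2 (0.7475) and Pttg1 (0.8556) were lost, with adjusted p of 0.152 to 0.217. Under that scaling 6 other genes of the lists were called, all lower, Ccnd2, Ccnd3, Cdk4, Ranbp1, Ssrp1 and Tubb5 (-1.268 to -2.011). In those of Tumor 2, Ccnf (2.48) was higher and 3 of 12 brakes, Cdkn2d (-1.88), Gadd45b (-1.45) and Cdkn1b (-1.43), were lower, with 1.90% of all genes called higher and 3.60% lower. Of these, Cdkn2d was not called with total UMIs alone (-1.408, adjusted p = 0.103), and 7 other genes of the lists then were, all higher, Ckap2l, Dek, Fen1, Lig1, Ranbp1, Ssrp1 and Tuba1c (1.112 to 3.486).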

How the data were processed

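Cells of 8 Seq-Well libraries were measured. The authors aligned reads to mm10 with STAR 2.5.2b after bcl2fastq 2.17.1.14 (per the submitters' processing notes) and deposited, per barcode, raw gene counts of UMIs with no normalization. Libraries were grouped by their labels. Of 4343 deposited barcodes, 449 with fewer than 200 genes were left out. Barcodes were gated by 18 marker lists, and a tie between classes left a barcode unassigned. Doublets were called by Scrublet in scanpy 1.11.5.

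UMIs were summed per class and library with at least 10 barcodes, at least 5 for cycling barcodes, and compared in R 4.3.3 with edgeR 4.0.16 (TMM, genes with at least 20 UMIs over the sums, quasi-likelihood F test, Benjamini-Hochberg adjustment over all genes tested, threshold 0.05, two-sided). Class comparisons had the library as a block. Where 1 class alone held under 20 UMIs of a gene, the gene reached the minimum through the other class, and its call is a description. Comparisons of tumors and regions had 1 mean per tumor and region over 8 libraries, with 4 residual degrees of freedom, so the border library is assumed to vary like the arrays. Changes are log2 values of the fit, and CPM values are per 1000000 UMIs of the sum. DESeq2 1.42.0, other filters, gates, scalings and left-out libraries were alternatives. The fits were tested on simulated data.

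Summaries used Python 3.11.15, numpy 2.4.6, pandas 2.3.3 and scipy 1.17.1. Members, lists and tests were chosen with earlier results of these data known. The comparisons of neutrophil-like cells between tumors and at the borders, that of epithelial-like with macrophage or monocyte-like cells, the difference of border effects, the held-out markers and the neutrophil precursor genes were added after seeing the data, as were the alternatives with total UMIs only, without primer-like barcodes, without the 5 most abundant members, within C1q macrophages, without the richest barcode of a class, without barcodes of at least 10 members and, for the mitotic sum, without Kif23. Named with values are up to 12 members past the threshold by size of change, the 5 members with the most UMIs, and from each further list up to 4 genes past the threshold by size of change. Some other genes were named after their values were seen. Intervals are exact at 95%, and they and the floor of 3 counts cover counting error only. Some items withheld for evaluation are not reported here.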

Additional observations from a re-analysis of the deposited data

Results flagged for a closer look

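The border effect on Kif23 in neutrophil-like cells differed between the tumors by -2.599 on the log2 scale (edgeR, adjusted p = 0.0268). Kif23 was lower at the border than in the arrays in Tumor 2 (27.5 against 109.1 ± 9.47 CPM) and near them in Tumor 1 (19.5 against 26.2 ± 3.44 CPM). The difference rests on 1 border library per tumor, with 6 and 20 UMIs, and was not called without Tumor 1 Whole Tumor array 2 (-2.47, adjusted p = 0.0735) or Tumor 2 Whole Tumor array 3 (-2.42, adjusted p = 0.0834).

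Barcodes under 200 genes, which entered no comparison, also held member UMIs. The 449 barcodes held 125 among 126612 UMIs, 9.873 per 10000, in 93 barcodes, and 4 of these met the cycling rule, with at most 2 members each.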

How the results depend on the processing

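Of 301 recomputed values and counts 255 kept their call or stayed within their error, and of 379 recomputed changes of single members 342 kept their call, 37 were no longer past the threshold and none reversed. With 1000 and 500 UMIs per barcode the cycling share was 0.8423% and 0.3336% in neutrophil-like, 4.334% and 1.284% in macrophage or monocyte-like, 5.594% and 1.198% in T, NK or innate lymphoid-like and 4.04% and 1.878% in epithelial-like barcodes. With at least 3 members and 5 UMIs it was 1.802%, 8.8%, 11.17% and 13.45%. Without Stmn1, Pcna and the Mcm genes it was 2.3%, 10.67%, 10.06% and 14.35%, and without the 5 most abundant members 2.3%, 7.733%, 7.821% and 18.83%, in the same order, with levels per 10000 of 1.82 and then 1.522 in neutrophil-like and 4.346 and then 3.613 in T, NK or innate lymphoid-like cells, and 2.417 without the 5 in macrophage or monocyte-like cells.

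The number of members called became 5 without the library block for macrophage or monocyte-like against neutrophil-like cells (3 with it) and 3 with filterByExpr for epithelial-like against neutrophil-like cells (6 otherwise). For epithelial-like against macrophage or monocyte-like cells (2) it became 4 with RLE size factors, 1 with DESeq2, 5 with at least 500 genes and 4 with at least 3 markers. For the Tumor 2 border in macrophage or monocyte-like cells (1) it became 0 with DESeq2, 2 with at least 3 markers and 0 without barcodes of at least 10 members. For neutrophil-like cells it became 8 between the tumors with total UMIs only (4), 0 at the Tumor 1 border with DESeq2 and with total UMIs only (1), and 0 for the difference of border effects with DESeq2, no filter and total UMIs only (1). The causes were not tested.

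Leaving out 1 library at a time gave 2 to 4 members called for macrophage or monocyte-like, 2 to 5 for T, NK or innate lymphoid-like and 1 to 6 for epithelial-like against neutrophil-like cells, and 0 to 5 for epithelial-like against macrophage or monocyte-like cells. It gave 2 to 3 and 3 to 4 between the tumors in macrophage or monocyte-like and neutrophil-like cells, 0 to 1 at the Tumor 1 border in neutrophil-like cells and 0 to 1 for the difference of border effects, and 1 in each case at the Tumor 2 border in either class. The cycling shares ran over 6.088% to 7.962%, 16.9% to 21.44%, 18.38% to 24.68% and 20% to 25.82% in neutrophil-like, macrophage or monocyte-like, T, NK or innate lymphoid-like and epithelial-like barcodes, and the levels over 3.143 to 3.557, 4.092 to 5.886, 7.14 to 8.071 and 5.426 to 5.983.

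With RLE size factors the median change over all genes went from 0.157 to 0.369 and the share of calls that were higher from 55% to 66.8% for macrophage or monocyte-like against neutrophil-like cells, from -0.437 to -0.103 and from 26.7% to 38.9% for T, NK or innate lymphoid-like cells, and for cycling barcodes that share went from 16.7% to 31.6%. The array numbers do not pair the arrays of the tumors, with correlations of their deviations of -0.0265, -0.0181 and -0.0243 in macrophage or monocyte-like and 0.0124, -0.00898 and 0.0133 in neutrophil-like cells. With the replicate block 2 members were called between the tumors in the former (2 without it) and 3 in the latter (4 without it). For the borders, each of 1 library, no fit of a shared border effect with the tumor as a block is given here.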
